A study of Homo sapiens with 16 samples.

Results

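The zinc finger genes of chromosome 19 were examined in RNA sequencing (RNAseq) of 2 colorectal cancer cell lines, HT55 and SW948, grown in adherent culture with the antifungal itraconazole. Members were the protein-coding genes on chromosome 19 (GRCh37 annotation) whose symbol starts with ZNF and that had 10 or more counts in all 4 samples of at least 1 group. Of 238 protein-coding ZNF genes there, 181 were members, among 54127 gene identifiers counted. Each line was treated with 5 µM itraconazole or with its solvent DMSO for 6 d, giving 4 groups of 4 libraries. The labels name no allele or agent beyond these, and DMSO was the control in both lines. The study's methods call the 4 replicates biological, without saying how the cultures were separated. The members were chosen by their raw counts, so being counted at all is not a finding about them. The members, and the attention given to ZNF780B, were also chosen with earlier results known.

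Most human zinc finger genes of this kind encode rows of C2H2 fingers, each a small fold that holds a zinc ion and contacts a few bases of DNA. Many also carry a KRAB domain, which recruits the corepressor TRIM28 (KAP1). TRIM28 in turn brings the histone H3 lysine 9 methyltransferase SETDB1 and heterochromatin proteins to the site. Chromosome 19 holds large tandem clusters of these genes, formed by repeated duplication, and many of their products bind remnants of retroelements. Because the copies resemble each other, short reads from them can align to several places, and such reads were not counted.

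Gene counts per library lay between 8269406 and 11110814. All 12 colon epithelium markers examined, among them EPCAM, CDH17 and KRT20, were at 1 CPM (counts per 1000000 gene counts, scaled) or more in every group. PTPRC and CD3E, which define leukocytes, were at 0 in SW948, where the leukocyte and secretory-cell gene LYZ averaged 373 CPM with DMSO and 100 CPM with itraconazole. Summed fibroblast markers stayed between 1.44 and 11 CPM in all libraries. In SW948, DMSO replicate 3 had a smaller member share of gene counts (0.252%) than the other DMSO libraries (0.267% to 0.268%), and itraconazole replicate 1 had a smaller share of alignments to several places (25.3%) than the other treated libraries (26.2%). Counts of members are therefore given with and without these libraries.

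The floor of 10 counts was reached in DMSO more often than in itraconazole. In HT55, 168 members reached it with DMSO and 156 with itraconazole, and in SW948 the numbers were 167 and 135. No member reached the floor only in an itraconazole group, whereas 15 members reached it only in DMSO groups. Membership was set by this same floor, so these numbers describe the choice of members and do not test the treatment. The share of all genes that cross the floor in the same way is not given here. Just inside the floor were ZNF345, with 10 to 20 counts in the SW948 DMSO libraries, and ZNF546, with 10 to 21. ZNF547 (9 to 14 counts in HT55 with DMSO), ZNF599 (9 to 18 in SW948 with DMSO) and ZNF331 (8 to 9 in HT55 with DMSO) fell just outside it. Of the 57 genes that were not members, 39 had some count and 18 had none.

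The 181 members took a small part of all reads, and a smaller part after treatment. With DMSO they held 0.221% to 0.225% of gene counts in HT55 and 0.252% to 0.268% in SW948. With itraconazole they held 0.152% to 0.171% in HT55 and 0.149% to 0.181% in SW948. In neither line did the treated libraries overlap the DMSO libraries. These are shares of unscaled gene counts. On that scale the median log2 fold change of all genes was itself -0.18 in HT55 and -0.35 in SW948 (itraconazole over DMSO). No share of other genes was set beside them. Per kilobase of exon, with all 16 libraries scaled together, the mean level of a member ranged from 0.0461 to 38.0 CPM per kb, with a median of 1.4. Averaged over the 16 libraries, ZNF146, a protein made almost wholly of fingers, had the highest level at 38.0 ± 8.63 CPM per kb (SD over libraries of all groups). ZNF581 (17.1 ± 9.32), ZNF317 (14.9 ± 3.84), ZNF358 (12.9 ± 5.38) and ZNF524 (11 ± 4.09 CPM per kb) came next in that average, and these neighbors lay within each other's spread. The order differed between groups: ZNF581 averaged 12.7 and 21.7 CPM per kb in HT55 with DMSO and itraconazole, and 5.84 and 28.1 in SW948, where ZNF146 averaged 26.5 with itraconazole.

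**Figure D1:**
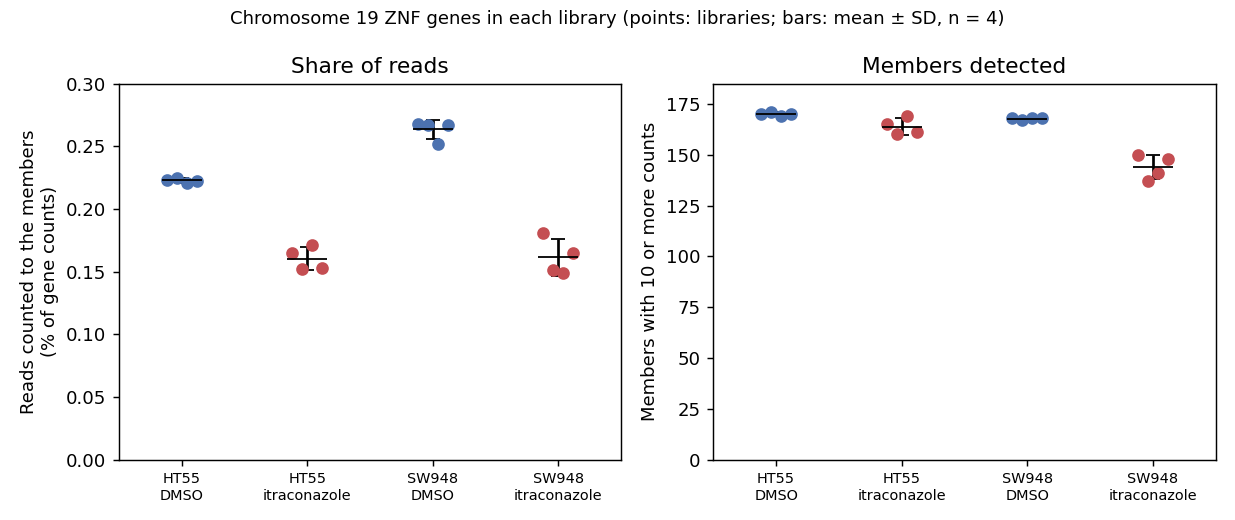
Left, reads counted to the 181 members as a percentage of all gene counts; right, the number of members with 10 or more counts. Points are libraries, and bars are mean ± SD (n = 4). The itraconazole libraries lie at 0.149% to 0.181% and the DMSO libraries at 0.221% to 0.268%. Gene counts are unscaled, and the median of all genes also fell on that scale.

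In HT55, more members fell than rose. Of 181 members, 169 had enough counts for the edgeR test, and 86 fell while 7 rose at an adjusted p under 0.05. Across all 12133 genes tested, 54.0% were called, 26.5% lower and 27.5% higher, whereas 50.9% of the tested members were lower and 4.14% higher. The median log2 fold change of the members was -0.45 (itraconazole over DMSO), beside -0.015 for all genes. The 4 treated and 4 DMSO libraries did not overlap for 78 members on the low side and for 5 on the high side, beside 24.6% and 24.9% of all genes. The count of 7 that rose was 4 without DMSO replicate 2, without DMSO replicate 3 or without itraconazole replicate 1, and 3 without itraconazole replicate 4.

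The change in SW948 was wider. Of 166 members tested, 106 fell and 29 rose, which is 63.9% and 17.5% of those tested. Among all 12505 genes tested in SW948, 80.2% were called, 41.3% lower and 38.9% higher. The members' median log2 fold change was -0.72, beside -0.025 for all genes, and 64 members lay below -1. The 4 treated libraries lay below all 4 DMSO libraries for 97 members and above them for 26 (38.6% and 35.8% of all genes). Without SW948 DMSO replicate 3, 105 fell and 28 rose, and without itraconazole replicate 1, 107 fell and 30 rose. Scaling by plain library totals moved the median of all genes by -0.33 in SW948 and -0.17 in HT55. On that scale 121 members fell and 12 rose in SW948, so the lower share of called members went from 78.5% to 91.0%. The members' median minus that of all genes was -0.70 in SW948 and -0.43 in HT55. Rescaling the libraries shifts all genes of a line about alike, so this difference could not change between scalings and tests nothing.

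A member over the floor in DMSO alone has at least 1 treated library under 10 counts, which favors lower values with itraconazole, so the counts above are not independent of the choice. In SW948, 31 tested members were over the floor in at most 1 group of that line, and 30 of them were lower, with a median of -2.21. The 135 members over the floor in both SW948 groups had a median of -0.42, with 76 lower and 29 higher. For the 156 members over the floor in both HT55 groups, the median was -0.43, with 78 lower and 7 higher. The 125 members over the floor in all 4 groups had medians of -0.39 in HT55 and -0.42 in SW948. These subsets leave out the members with the deepest falls, so they are choices on the counts as well. Bulk RNA cannot tell fewer cells of a type from less RNA per cell.

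ZNF genes on other chromosomes also had more falls than rises. Of 214 over the same floor, 207 were tested in HT55, where 76 were lower and 36 higher with a median of -0.27. In SW948, 126 of 205 were lower and 49 higher with a median of -0.68. The other protein-coding genes of chromosome 19 differed, with 115 of 615 lower and 208 higher in HT55 (median 0.07) and 179 of 659 lower and 355 higher in SW948 (median 0.30). The difference between these lists was not tested.

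KRAB domains and finger number were read from the translated coding sequence of 1 transcript per gene. The KRAB signature was sought only near the start of the protein, so a domain further along would be missed. A KRAB signature was found in 149 members and not in 31, and ZNF274 gave no reading because its coding sequence could not be translated on this build. Members had 1 to 32 fingers with a median of 12. In HT55, 75 of 140 tested members with the signature fell and 3 rose (median -0.48), whereas without it 10 of 28 fell and 4 rose (median -0.39). In SW948, 92 of 135 with the signature fell and 21 rose (median -0.82), and without it 14 of 30 fell and 7 rose (median -0.11). Among members over the floor in all 4 groups, medians with the signature (101 members) were -0.40 in HT55 and -0.57 in SW948. Without it (23 members) they were -0.10 in HT55 and 0.035 in SW948. GC content of members without the signature ran from 36.62% (ZNF260) to 70.83% (ZNF628), and many lay above the median of all members, 43.6%. The signature and GC content were not separated. By finger number, the SW948 medians were -0.30 for 1 to 6 fingers, -0.87 for 7 to 12 and -0.75 for 13 or more.

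**Figure D2:**
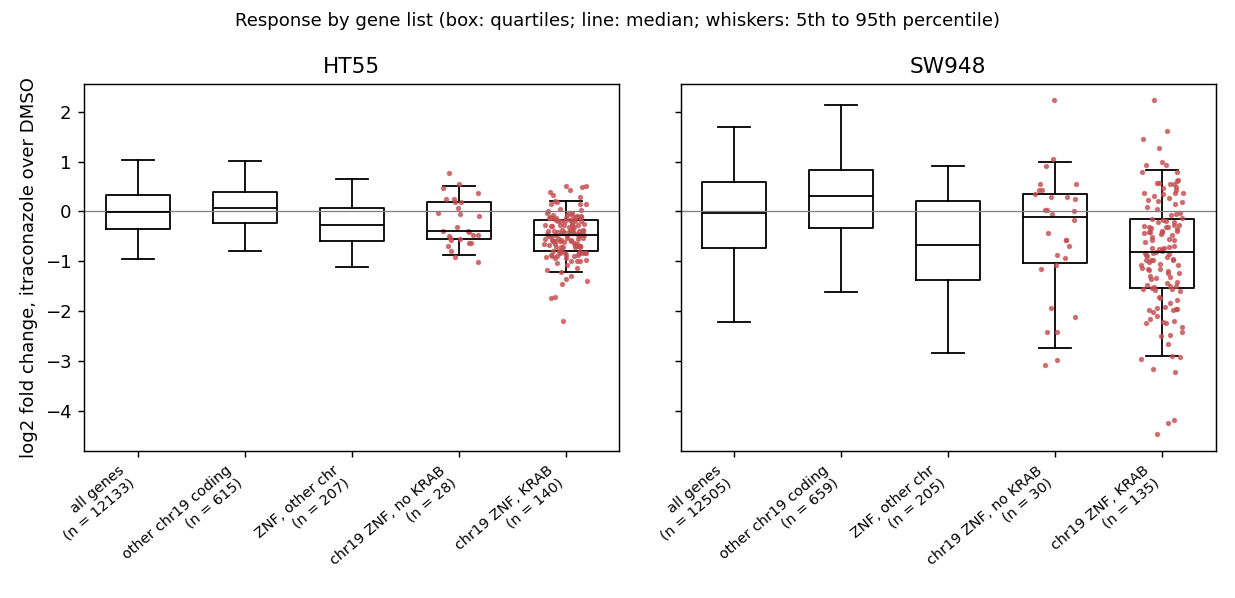
Log2 fold change (itraconazole over DMSO) in HT55 and SW948 for all genes, other protein-coding genes of chromosome 19, ZNF genes of other chromosomes, and the members without and with a KRAB signature. Boxes are quartiles with the median, whiskers run from the 5th to the 95th percentile, and points are members. The KRAB members have the lowest medians, -0.48 in HT55 and -0.82 in SW948.

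ZNF780B (chr19:40534167-40562138, minus strand, 21 fingers and a KRAB signature) lay at -4.24 on the log2 scale in SW948, below every other member tested but ZNF233 (-4.47). Its SW948 levels with DMSO were 40.8, 41.7, 32.4 and 40.1 CPM, and with itraconazole 2.87, 1.06, 1.05 and 2.88 CPM. Every treated library lay below every DMSO library in this line. The raw counts behind these levels were 359 to 495 with DMSO and 8 to 28 with itraconazole, and no test is given in this line because the gene was chosen for this change. In HT55 the levels were 20.9, 17.9, 17.7 and 17.3 CPM with DMSO and 6.40, 3.08, 10.6 and 6.46 CPM with itraconazole. These groups did not overlap either, and the gene fell by 1.45 on the log2 scale (SE 0.26, edgeR adjusted p = 0.00107).

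ZNF780A (chr19:40575059-40596850, minus strand, 17 fingers) lies next to ZNF780B. It fell in both lines, by 0.68 in HT55 (SE 0.16, adjusted p = 0.00522) and by 3.23 in SW948 (SE 0.17, adjusted p = 9.57e-10) on the log2 scale. Its levels with DMSO were 31.3, 31.2, 29.2 and 31.5 CPM in SW948, and with itraconazole 5.12, 2.64, 2.62 and 2.42 CPM. In HT55 they were 16.5, 16.2, 16.8 and 16.9 CPM with DMSO and 8.68, 7.87, 13.8 and 10.9 CPM with itraconazole. The treated libraries were lower than all DMSO libraries in both lines, and the interaction between line and treatment was -2.53 (SE 0.26, adjusted p = 1.98e-07). ZNF546, the third gene of this cluster, had too few counts for a test: in SW948 it had 21, 13, 18 and 10 counts with DMSO and 1, 0, 0 and 0 with itraconazole.

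The regions before ZNF780B and ZNF780A resemble each other. They are shown because the genes moved together, as the 250 bases before each start, with capitals on bases that differ or have no partner in the alignment. A global alignment placed 203 identical bases in 257 columns (79%). Sequences are from RefSeq (table build GRCh38.p14) and matched GRCh37 exactly, once each, at chr19:40562139-40562388 for ZNF780B and chr19:40596851-40597100 for ZNF780A, minus strand.
ZNF780B: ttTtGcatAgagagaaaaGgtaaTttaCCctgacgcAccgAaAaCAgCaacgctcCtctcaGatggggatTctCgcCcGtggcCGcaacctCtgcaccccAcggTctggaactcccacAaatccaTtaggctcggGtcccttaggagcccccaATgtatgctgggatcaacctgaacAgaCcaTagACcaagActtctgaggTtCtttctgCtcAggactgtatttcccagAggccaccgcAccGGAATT
ZNF780A: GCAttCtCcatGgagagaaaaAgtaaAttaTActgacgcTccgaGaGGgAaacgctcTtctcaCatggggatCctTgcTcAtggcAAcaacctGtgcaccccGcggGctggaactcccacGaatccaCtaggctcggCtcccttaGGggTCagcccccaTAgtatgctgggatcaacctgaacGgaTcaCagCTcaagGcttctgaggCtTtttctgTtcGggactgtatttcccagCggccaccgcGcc

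Their last coding exons were 69.7% identical over 1691 bases when set side by side without gaps, at the offset of their longest shared stretch. No gapped alignment of the exons was run, so this percentage cannot be set beside that of the regions before the genes. The longest stretch the exons share without a difference is 77 bases, at chr19:40540949-40541025 in ZNF780B and chr19:40580616-40580692 in ZNF780A (GRCh37, minus strand), and it is shown because a 50-base read from inside it cannot be assigned to 1 gene.
Shared stretch: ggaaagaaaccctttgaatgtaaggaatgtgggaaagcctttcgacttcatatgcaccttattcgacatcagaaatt
Of the 2218 windows of 50 bases in the ZNF780B exon, 80 (3.61%) were found in that of ZNF780A. Over all exons of each gene, 94.4% of 50-base windows of ZNF780B and 94.0% of those of ZNF780A occurred once in the genome.

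Among the other members with 10 or more counts in each of the 8 HT55 libraries, a call and no overlap between groups, the largest falls were led by ZNF112, from 6.31 to 9.07 CPM with DMSO to 1.82 to 2.86 CPM with itraconazole (log2 fold change -1.72, SE 0.20, adjusted p = 7.57e-05). ZNF773, ZNF461, ZNF17, ZNF544, ZNF548 and ZNF530 followed, with log2 fold changes from -1.22 to -1.02. These 6 met a rule that required a call and no overlap between groups in HT55, so neither is a separate result. Of these, ZNF773, ZNF461 and ZNF548 had too few counts in SW948 for a test. ZNF544, with 27.1, 29.7, 29.7 and 30.4 CPM in HT55 with DMSO, had 14.2, 12.4, 16.8 and 11.5 CPM with itraconazole. It fell in SW948 too, from 20.1 to 24.5 CPM to 3.54 to 4.38 CPM (log2 fold change -2.42, SE 0.13, adjusted p = 1.03e-09).

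ZNF112, ZNF17 and ZNF530 also fell in SW948, by 1.71, 2.32 and 0.93 on the log2 scale. The call of ZNF530 in SW948 (adjusted p = 0.0196) was lost without DMSO replicate 1 (0.0551) or itraconazole replicate 4 (0.0608).

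In SW948, the largest falls under the same limits (10 or more counts in each of the 8 libraries, a call and no overlap) were those of ZNF780A, ZNF253, ZNF180, ZNF544, ZNF324, ZNF681, ZNF792 and ZNF181. ZNF253 went from 14 to 22.1 CPM with DMSO to 2.10 to 4.20 CPM with itraconazole (log2 fold change -2.67, SE 0.20, adjusted p = 3.15e-08). ZNF180 went from 11.8 to 12.7 CPM to 1.85 to 2.77 CPM (-2.43, SE 0.15, adjusted p = 4.22e-09). ZNF324, ZNF681, ZNF792 and ZNF181 had log2 fold changes from -2.22 to -1.97. The lack of overlap in SW948 was required of all 8 by the rule. ZNF792 overlapped between the HT55 groups, with 2.99 to 4.40 CPM with DMSO and 2.28 to 5.91 CPM with itraconazole, and its interaction was -2.28 (SE 0.33, adjusted p = 1.02e-05).

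Members over the floor only with DMSO included deeper falls, named here after their values were seen. In HT55, ZNF528 had 13 to 17 counts with DMSO and 2 to 4 with itraconazole (log2 fold change -2.20), and ZNF738 went from 35 to 54 counts to 6 to 16 (-1.73). In SW948, ZNF233 had 15 to 23 counts with DMSO and 0 to 1 with itraconazole (log2 fold change -4.47). ZNF583 went from 23 to 31 counts to 0 to 2, ZNF416 from 49 to 63 counts to 1 to 9, and ZNF493 from 88 to 136 counts to 9 to 15. The log2 fold changes of genes with treated counts this low depend on the prior count used in the fit.

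A smaller group rose. ZNF581, a short gene with 4 fingers and no KRAB signature, rose in both lines. In SW948 its levels were 10.3, 10.5, 8.84 and 10.4 CPM with DMSO and 38.2, 52.4, 56.4 and 41.2 CPM with itraconazole, and its log2 fold change was 2.23 (SE 0.13, adjusted p = 2.76e-09). In HT55 its levels were 20.3, 19.1, 18.8 and 21.8 CPM with DMSO and 36.3, 42.1, 24.6 and 34.1 CPM with itraconazole, a rise of 0.77 (SE 0.15, adjusted p = 0.0014). The treated libraries lay above the DMSO libraries in both lines. The rule that named this gene in each line required this and a call, so neither is a separate result. Of its exon bases, 24.9% overlap another annotated gene.

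ZNF836 rose as much in SW948, from 3.55, 3.47, 2.44 and 3.40 CPM to 13.3, 16.5, 16 and 14.9 CPM (log2 fold change 2.23, SE 0.15, adjusted p = 7.15e-09). In HT55 its groups overlapped, at 1.69 to 2.05 CPM with DMSO and 1.67 to 2.58 CPM with itraconazole, and the interaction was 2.10 (SE 0.27, adjusted p = 2.5e-06). The rule that named ZNF836 and the following genes required a call and no overlap between groups in SW948. ZNF57, ZNF177, ZNF430, ZNF296, ZNF823 and ZNF431 rose in SW948 by 0.94 to 1.62 on the log2 scale. Of these, ZNF57 rose in HT55 as well (0.51, SE 0.12, adjusted p = 0.00436), but 75.2% of its exon bases overlap another gene, so its values are uncertain.

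The other named members that rose in HT55 were ZNF358, ZNF574, ZNF317 and ZNF490. The HT55 call of ZNF574 was near the threshold (log2 fold change 0.19, adjusted p = 0.0476), and its adjusted p was 0.777 with plain library totals, 0.178 with GC and length correction, 0.183 with no filter on low counts and 0.0567 with 10 counts required in every library. It was also lost without any 1 of 6 HT55 libraries (DMSO 2, 3 and 4 and itraconazole 1, 2 and 4), where the adjusted p reached 0.122.

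**Figure D3:**
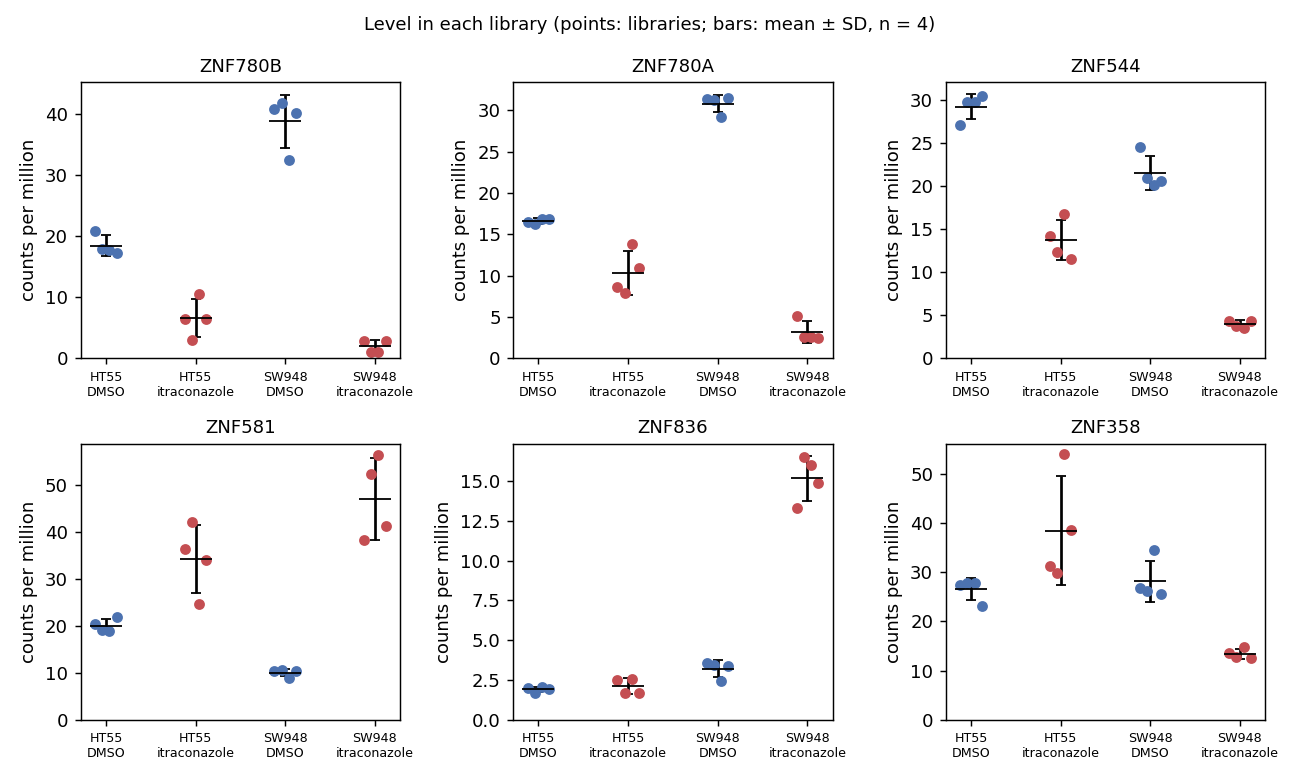
Level in CPM in each library for ZNF780B, ZNF780A, ZNF544, ZNF581, ZNF836 and ZNF358; points are libraries and bars are mean ± SD (n = 4). Each line was scaled separately, so levels compare within a line. ZNF780B averages 38.7 CPM with DMSO and 1.96 CPM with itraconazole in SW948, and 18.4 and 6.64 CPM in HT55.

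Both lines could be compared for 155 members. Of these, 60 were lower in both (38.7%, beside 19.5% of all 11448 genes tested in both) and 4 were higher in both (beside 19.9%). The 4 were ZNF581, ZNF57, ZNF574 and ZNF317, and ZNF574 was called in neither line with plain library totals (adjusted p = 0.777 in HT55 and 0.808 in SW948). Another 36 fell in SW948 and 19 rose there without a call in HT55. Membership through DMSO groups alone favors lower values, so the 38.7% is not independent of the choice. Among the 125 members over the floor in all 4 groups, 56 fell and 7 rose in HT55, and 71 fell and 29 rose in SW948. Their share lower in both lines was not counted. The 2 responses correlated across these 155 genes (Pearson r = 0.567, Spearman rho = 0.537), and Pearson r was 0.623 over all 11448 genes. Genes are not independent replicates, and each line has its own libraries.

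The line by treatment interaction passed the test for 98 of 180 members (54.4%, beside 53.9% of all genes). It was more negative in SW948 for 65 and more positive for 33, beside 29.1% and 24.8% of all genes. Of the 92 that were also tested in each line, 82 (89.1%) had the larger absolute change in SW948, beside 81.7% of the 6726 genes of any kind called and tested in the same way.

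Called changes went opposite ways in 8 members (beside 6.66% of all genes). ZNF296, ZNF580, ZNF227, ZNF274, ZNF136 and ZNF585A were lower in HT55 and higher in SW948, and ZNF358 and ZNF490 were higher in HT55 and lower in SW948. ZNF358 had 27.4, 27.8, 27.8 and 23.1 CPM in HT55 with DMSO and 31.2, 29.8, 54.0 and 38.5 CPM with itraconazole. In SW948 it had 26.7, 26.1, 34.4 and 25.5 CPM with DMSO and 13.5, 12.7, 14.8 and 12.6 CPM with itraconazole, and the interaction was -1.58 (SE 0.22, adjusted p = 8.09e-06). Neither line showed overlap between groups for this gene, though in HT55 the rule that named it among the rises required this.

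ZNF296 had an interaction of 1.62, ZNF580 of 1.60 and ZNF490 of -1.54. The HT55 calls lay near the threshold. The adjusted p in HT55 was 0.0296 for ZNF296, 0.0231 for ZNF580 and for ZNF358, and 0.0459 for ZNF490. The call of ZNF296 was lost without any HT55 DMSO library or without itraconazole replicate 3 or 4 (adjusted p up to 0.079), and that of ZNF490 without any DMSO library or without itraconazole replicate 1 or 4 (up to 0.112). That of ZNF580 was lost without DMSO replicate 2 or 3 or itraconazole replicate 1 (up to 0.0733), and that of ZNF358 without DMSO replicate 4 or itraconazole replicate 4 (up to 0.0612). With plain library totals neither HT55 rise was called (adjusted p = 0.121 for ZNF358 and 0.183 for ZNF490). That of ZNF490 was also lost with the DESeq2 Wald test (0.0545), no filter on low counts (0.0803) and GC and length correction (0.0595).

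**Figure D4:**
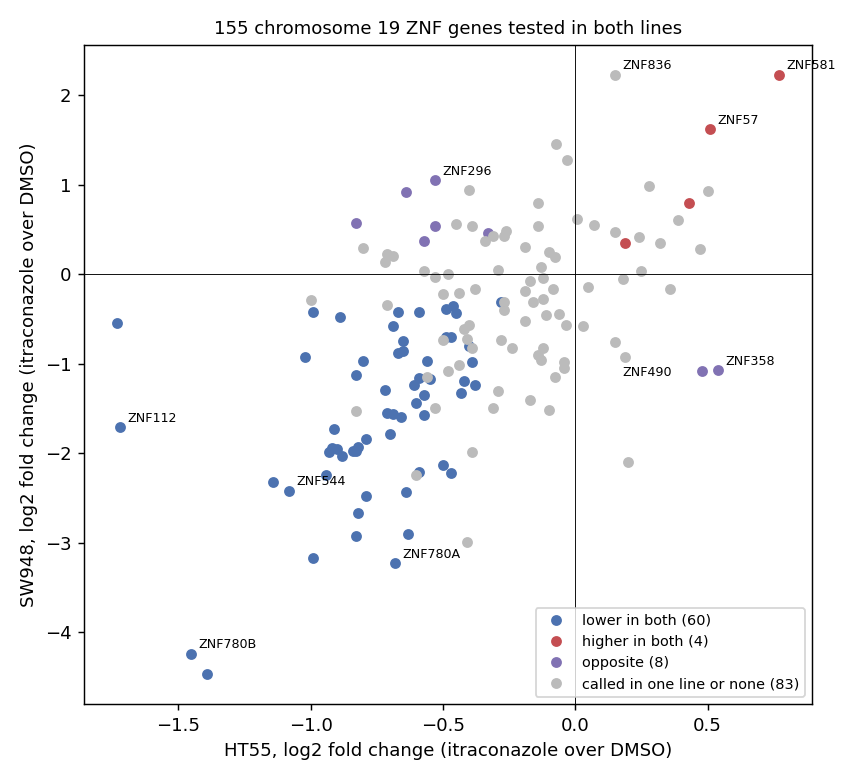
Log2 fold change (itraconazole over DMSO) in HT55 against SW948 for the 155 members tested in both lines. Colors mark members lower in both (60), higher in both (4), opposite (8) and called in 1 line or none (83). Points spread further along the SW948 axis, and ZNF780B lies near the lower left corner.

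Several members have described targets. ZNF91, which represses SVA retroelements, fell in both lines, by 0.56 in HT55 (SE 0.10, adjusted p = 0.00102) and by 0.97 in SW948 (SE 0.11, adjusted p = 2.49e-06) on the log2 scale. ZNF93, known to bind LINE-1 elements, fell in HT55 (-0.72, SE 0.20, adjusted p = 0.0116), while in SW948 it was at 8.66 to 11.3 CPM with DMSO and 9.52 to 13.1 CPM with itraconazole. The HT55 call of ZNF93 was lost with the DESeq2 Wald test (0.0582) and with no filter on low counts (0.0522). ZNF274, which binds the 3' ends of ZNF genes and recruits SETDB1 there, fell in HT55 by 0.33 (SE 0.088, adjusted p = 0.00998) and rose in SW948 by 0.46 (SE 0.091, adjusted p = 0.000335). With plain library totals the SW948 rise of ZNF274 was not called (0.13, adjusted p = 0.217).

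ZNF350 (ZBRK1), a partner of BRCA1, fell in SW948 (-0.82, SE 0.16, adjusted p = 0.000227), and its interaction was -0.67 (adjusted p = 0.025). That interaction was lost without HT55 DMSO replicate 3 (0.0557), HT55 itraconazole replicate 2 (0.0611), SW948 DMSO replicate 1 (0.0556) or SW948 itraconazole replicate 3 (0.0524). ZNF420 (Apak), a negative regulator of p53, fell in SW948 (-0.73, SE 0.17, adjusted p = 0.00135). ZNF649 fell in both lines (-0.70 and -1.78). ZNF675, an inhibitor of TRAF6 signaling, fell in HT55 (-0.44, adjusted p = 0.0221). The HT55 call of ZNF675 was lost without DMSO replicate 2 (0.0813) or 4 (0.0631).

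ZNF304 fell in HT55 (-0.88, SE 0.24, adjusted p = 0.0106) and had at most 1 count in any SW948 library. ZNF146 fell from 190.0, 191.0, 198.0 and 196.0 CPM to 151.0, 134.0, 143.0 and 133.0 CPM in HT55, and from 177.0 to 189.0 CPM to 97.3 to 133.0 CPM in SW948. Its log2 fold changes were -0.47 (SE 0.060, adjusted p = 0.000144) and -0.70 (SE 0.086, adjusted p = 3.79e-06).

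Of 22 listed partners of KRAB silencing, 21 were counted here. In HT55, 8 of the 21 fell and 2 rose (38.1% and 9.52%, beside 26.5% and 27.5% of all genes tested). In SW948, 7 fell and 10 rose (33.3% and 47.6%, beside 41.3% and 38.9%). The share of partners called either way was 47.6% in HT55 and 81.0% in SW948, beside 54.0% and 80.2% of all genes. The partners were thus called about as often as any gene. TRIM28 averaged 509 ± 19.9 CPM with DMSO and 455 ± 18.9 CPM with itraconazole in HT55 (log2 fold change -0.16, SE 0.060, adjusted p = 0.0427). In SW948 it rose from 151 ± 7.64 to 274 ± 16.8 CPM (0.86, SE 0.065, adjusted p = 3.01e-08). SETDB1 rose in SW948 by 0.29 (SE 0.072, adjusted p = 0.00198), and ATF7IP, which stabilizes it, rose in both lines (0.37 and 0.61).

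The HUSH complex subunits TASOR, MPHOSPH8 and PPHLN1, and its effector MORC2, fell in SW948, by 1.61, 1.18, 0.67 and 1.44 on the log2 scale. In HT55 PPHLN1 alone of these 4 passed the test (-0.49, adjusted p = 0.00997). The DNA methyltransferase DNMT1 and the heterochromatin protein CBX5 (HP1 alpha) fell in both lines, by 0.53 and 0.37 in HT55 and by 1.41 and 1.25 in SW948. Of the other HP1 genes, CBX3 fell in HT55 (-0.42) and was not called in SW948 (-0.04), where CBX1 rose by 0.18. EHMT2, CHD4 and HDAC2 were also among the 10 partners that rose in SW948, by 0.83, 0.65 and 0.35. Under plain library totals 13 partners fell in each line, and 4 rose in SW948. On that scale 38.8% of all genes were lower in HT55, and 54.6% were lower and 25.1% higher in SW948.

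Members lie in clusters, taken here as runs of ZNF genes less than 500 kb apart. Most clusters had medians below 0 in both lines. Across all genes tested, 26.5% were lower and 27.5% higher in HT55, and 41.3% were lower and 38.9% higher in SW948. The cluster at chr19:57702868-58992597 held 34 members, of which 23 of 32 tested fell in HT55 (median -0.73) and 17 of 23 in SW948 (median -1.15), and none rose in HT55. In the cluster at chr19:52074536-54083523, 14 of 29 fell in HT55 and 20 of 27 in SW948. The cluster at chr19:19779605-24312770 had 9 of 18 lower in HT55 and 13 of 22 in SW948. At the short-arm end, all 4 members at chr19:2819866-2944969 (ZNF554, ZNF555, ZNF57 and ZNF77) rose in SW948, by 0.47 to 1.62. Of the other protein-coding genes of chromosome 19, 53.9% were higher in that line. The value of 1.62 is that of ZNF57, uncertain because 75.2% of its exon bases overlap another gene. The cluster at chr19:55987984-57183151 was mixed, with 3 of 11 higher, 4 lower and a median of 0.25 in SW948, and a range from -4.19 to 2.23.

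**Figure D5:**
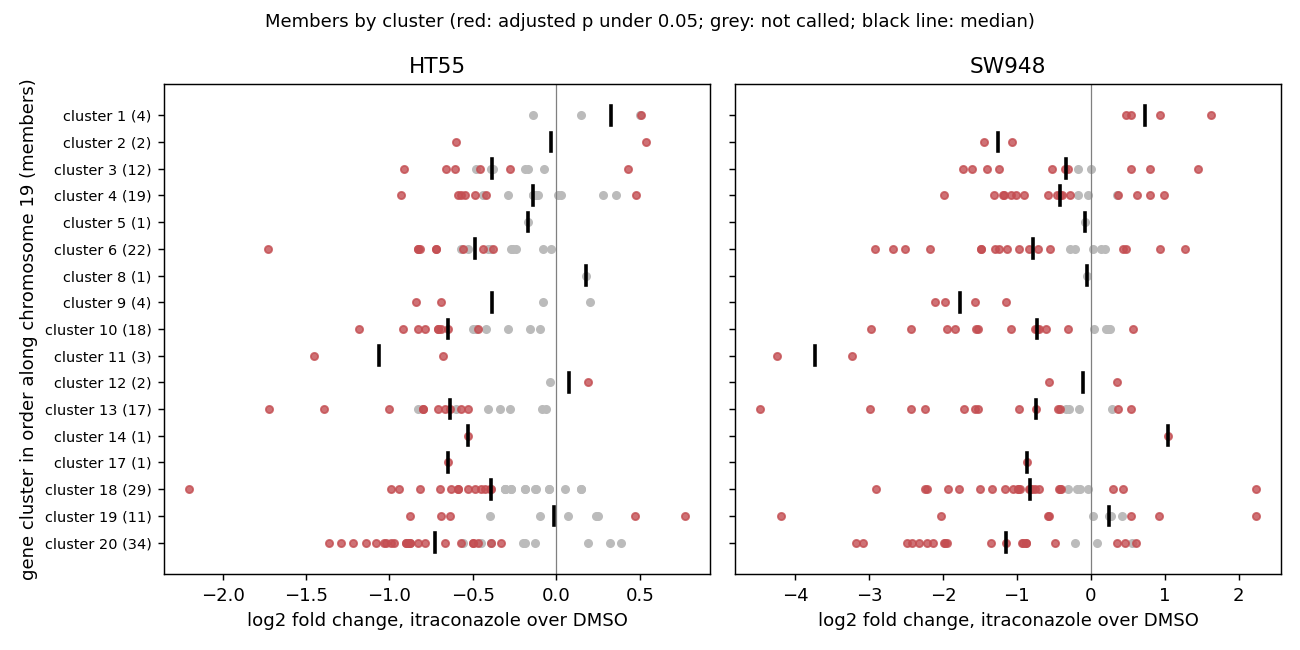
Log2 fold change of each tested member by cluster, in order along chromosome 19, in HT55 (left) and SW948 (right); numbers in parentheses are members. Red points passed the test (adjusted p under 0.05), grey points did not, and black lines are medians. In SW948, cluster 1 lies above 0. Cluster 11 has a median of -3.73 from 2 tested members, ZNF780B and ZNF780A. ZNF780B was chosen for its fall in this line, so the low place of this cluster is not a separate result.

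Members had a median exon length of 5570 bp and a median GC content of 43.6%, beside 59.7% for the other protein-coding genes of chromosome 19. Their log2 fold changes correlated with GC content across genes at Pearson r of 0.31 in HT55 (169 genes) and 0.151 in SW948 (166 genes). Correlations with finger number were -0.0145 and -0.0379.

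The median member had 96.1% of its 50-base exon windows unique in the genome, with a range from 66% to 100%, and 32 members had under 90%. In HT55, 16 of 30 tested members under 90% fell (median -0.44), beside 70 of 139 of the rest (median -0.46). In SW948, 22 of 28 under 90% fell (median -0.97), beside 84 of 138 of the rest (median -0.57). Alignments to several places made up 26.6% ± 0.365 of all alignments and unaligned reads tallied in HT55 with DMSO and 26.0% ± 1.85 with itraconazole (SD, n = 4, exact permutation p = 0.486). In SW948 they were 22.8% ± 0.734 and 26.0% ± 0.452 (exact permutation p = 0.0286, the smallest a two-sided test of 4 against 4 can give, and 0.0571 after adjustment over both lines). Their part in the members' change was not tested.

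The promoters of the members were searched for short motifs on both strands, in the 250 bases before the start. RefSeq gave a start for 162 of the 181 members, and the median GC of these windows was 60.4%, beside 58% for all 27305 promoters. The ETS letters CCGGAAG were in 51 members (31.5%, beside 8.82% of all promoters and 26.2% of ZNF promoters on other chromosomes). The GC box GGGCGG was in 65.4% (42.3% of all), CCAAT in 50.6% (33% of all) and TATAAA in 2.47% (11.1% of all). In ZNF promoters on other chromosomes these were 57%, 39.8% and 3.91%, and in other chromosome 19 promoters 58.8%, 34.8% and 7.55%. The ETS letters were in 11.2% of the other chromosome 19 promoters. None of the comparison sets had a count floor, unlike the members. The sterol element TCACNCCAC was in 0 of 162 (0.875% of all promoters).

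The windows of ZNF773, which fell in HT55, and ZNF324, which fell in SW948, were picked as examples. Each holds the ETS letters at 2 places and is shown with ETS and GC box letters in capitals. They lie at chr19:58011056-58011305 and chr19:58978197-58978446 (GRCh37, plus strand, exact matches of the RefSeq sequence).
ZNF773: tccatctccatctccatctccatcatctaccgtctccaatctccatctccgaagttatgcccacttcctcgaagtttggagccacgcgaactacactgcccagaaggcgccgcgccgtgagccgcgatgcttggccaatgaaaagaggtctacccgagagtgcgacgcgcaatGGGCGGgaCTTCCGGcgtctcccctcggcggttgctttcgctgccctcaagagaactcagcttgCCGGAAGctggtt
ZNF324: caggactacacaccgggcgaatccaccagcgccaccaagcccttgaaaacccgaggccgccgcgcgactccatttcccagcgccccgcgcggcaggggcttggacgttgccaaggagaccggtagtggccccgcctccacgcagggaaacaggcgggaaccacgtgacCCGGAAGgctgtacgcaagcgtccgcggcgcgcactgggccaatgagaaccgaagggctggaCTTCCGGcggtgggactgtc
In HT55, 28 of 46 tested members with the ETS letters fell and 0 rose (median -0.56), beside 48 of 105 that fell and 7 that rose without them (median -0.42). In SW948, 24 of 42 with the letters fell and 10 rose (median -0.88), beside 68 of 105 and 18 (median -0.58). Other named members with the letters included falls (ZNF548, ZNF180, ZNF681 and ZNF181) and rises in SW948 (ZNF177, ZNF430, ZNF431 and ZNF580). Those without the letters included falls (ZNF780B, ZNF780A, ZNF112 and ZNF544) and rises in SW948 (ZNF836, ZNF581, ZNF57, ZNF296 and ZNF823).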

How the data were processed

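RNAseq libraries (TruSeq, single-end 50 bp, HiSeq) of 2 cell lines, 4 per group, were used. The authors deposited raw read counts per Ensembl gene, made after alignment to hg19; their processing notes name TopHat, HTSeq and DESeq, with versions and the strand setting not given in the sources used here. The 5 totals outside genes (such as not-unique alignments) were left out of library sizes. No column was left unmapped.

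Gene symbols and exons came from GENCODE on GRCh37 for 47098 of 54127 identifiers. Each line (8 libraries) was fitted across all genes with edgeR 4.0.16 (TMM scaling, its default filter on low counts, quasi-likelihood test), and the interaction on all 16 libraries. Benjamini-Hochberg adjustment ran over all genes tested, at a threshold of 0.05. Counts per 1000000 (CPM) were scaled by TMM within each line. Fits were tested on simulated data. Shares of not-unique alignments were compared by two-sided exact permutation tests (scipy 1.17.1). Total counts of 8269406 to 11110814 per library limit precision for low genes.

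The members and gene lists were chosen with earlier results of these data known. Genes were named by rule: ZNF780B and its neighbors ZNF780A and ZNF546, in each line the 8 largest falls and rises (fewer where fewer met the rule) with 10 or more counts in all 8 libraries, a call and no overlap between groups, the 4 largest opposite changes, the 5 highest levels per kb, listed genes with known roles, KRAB partners, and genes at the floor. Alternatives were DESeq2 size factors, plain totals, the DESeq2 (1.42.0) Wald test, other filters, a replicate block, GC and length correction, and leaving out each library. UHRF1 and ZNF224 were not analysed here, and ZNF382 was not a member.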

Additional observations from a re-analysis of the deposited data

Results flagged for a closer look

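In groups of 4, a library was marked as far from the rest when its gap to the nearest other library took up more of the group's range than Dixon's 95% limit for 4 values allows, with that ratio given. Chance marks about 1 in 20 groups, or 8 of the 164 examined, and 19 were marked. In SW948 with DMSO, replicate 3 was marked for the member share of gene counts (ratio 0.911), ZNF91 (0.976), ZNF581 (0.871), ZNF836 (0.867), ZNF780A (0.853) and ZNF358 (0.866). Replicate 1 was marked for ZNF823 (0.912), replicate 2 for ZNF548 (1.0, 1 count in 1 library) and replicate 4 for ZNF304 (0.851). In SW948 with itraconazole, replicate 1 was marked for the share of not-unique alignments (0.91), ZNF780A (0.919) and ZNF546 (1.0), replicate 2 for ZNF649 (0.854), and replicate 4 for ZNF530 (0.871) and ZNF681 (0.895). In HT55 with DMSO, replicate 4 was marked for ZNF430 (0.846) and ZNF358 (0.904) and replicate 1 for ZNF461 (0.898). In HT55 with itraconazole, replicate 1 was marked for ZNF546 (1.0).

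The response differed between the lines by the interaction test (edgeR, adjusted p under 0.05) for 98 members. Among named members, the SW948 response was more negative than the HT55 response for ZNF780A (-2.53 on the log2 scale), ZNF681 (-2.37), ZNF792 (-2.28), ZNF253 (-1.82), ZNF180 (-1.77), ZNF324 (-1.73), ZNF358 (-1.58), ZNF490 (-1.54), ZNF544 (-1.31), ZNF17 (-1.15), ZNF181 (-1.11), ZNF649 (-1.06) and ZNF350 (-0.67). It was more positive for ZNF836 (2.10), ZNF296 (1.62), ZNF580 (1.60), ZNF177 (1.55), ZNF581 (1.48), ZNF431 (1.37), ZNF430 (1.35), ZNF57 (1.14), ZNF93 (0.89), ZNF274 (0.81), ZNF823 (0.74) and ZNF317 (0.40). The interaction of ZNF17 was lost without HT55 itraconazole replicate 3 (adjusted p = 0.0549), and that of ZNF317 under plain library totals (0.21, adjusted p = 0.119).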

How the results depend on the processing

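The median log2 fold change of the members stayed below 0 in both lines under every alternative run. Leaving out 1 library at a time gave 69 to 90 members lower and 3 to 10 higher in HT55 (median -0.47 to -0.42), 101 to 107 lower and 25 to 30 higher in SW948 (median -0.82 to -0.63), and 90 to 103 interactions. With plain library totals, 3 rose in HT55 and 12 in SW948, with medians of -0.61 and -1.05, and 13 KRAB partners fell in HT55 and 13 in SW948, where 4 rose. Of all genes tested, 38.8% were lower and 18.8% higher in HT55 on that scale, and 54.6% and 25.1% in SW948. At an adjusted p under 0.01, 3 members rose and 53 fell in HT55. With 10 counts required in every library, the SW948 median was -0.46, since that filter removes members that fell to low counts. The difference in not-unique alignments ranged from -1.25 to 0.0195 percentage points in HT55, turning positive without itraconazole replicate 3, and from 2.86 to 3.41 in SW948, where 4 against 3 libraries cannot give a p below 0.0571. Of the single-gene values, 1724 kept direction and call, 72 lost a call, 12 gained one and 14 changed sign. Sign changes, of values of 0.20 or less in size, were in HT55 ZNF430 (0.039 and 0.025 with GC and length correction without and with the block, -0.16 to 0.14 over the left-out libraries), ZNF792 (-0.023 without itraconazole replicate 3, up to 0.40 over the others), ZNF177 (0.00054 with GC and length correction, -0.15 to 0.044 over the left-out libraries) and ZNF836 (-0.0066 with plain totals), and in SW948 ZNF93 (-0.19 with plain totals) and ZNF524 (-0.30 with plain totals, -0.0059 with 10 counts in every library, -0.29 with GC and length correction and with the block added, -0.069 to 0.11 over the left-out libraries). The cause was not tested.

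Replicate numbers are shared between groups, and whether they pair the cultures is not known. Same-number correlations of deviations ran from -0.0448 to 0.145 in HT55 and from 0.00228 to 0.134 in SW948, highest for replicate 3 in both. The means over pairs of unlike number were -0.0106 and -0.0183. Such low values cannot settle the pairing, so fits with a replicate block were also run. With the replicate block, 87 members fell and 6 rose in HT55, 105 fell and 29 rose in SW948, and 95 interactions were called. The block ended the HT55 calls of ZNF574 (adjusted p = 0.0708), ZNF490 (0.0731) and ZNF296 (0.0512), and gave one for ZNF420 in HT55 (0.0489). Fewer than 20 counts in a treated group limit the fold changes of members at the floor.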
